A study of Mus musculus with 3 samples.

Results

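The circadian clock genes described here are 10 genes of the transcriptional clock: the activators Bmal1 and Clock, the repressors Per1, Per2, Per3, Cry1 and Cry2, the nuclear receptors Nr1d1 and Nr1d2, and the output factor Dbp. Members were taken by name. A probeset counted for a gene where the array platform's annotation gave it that gene's symbol, current or former, and no other. Bmal1 was annotated as Arntl. All 10 genes were found, with 281 of the 318760 probesets that carried a single symbol, and they are 10 of the 18865 genes with at least 4 such probesets. Expression was measured on 3 Affymetrix exon arrays, 1 per RNA sample, with biotin-labelled amplified cDNA from flow-sorted GFP-positive bone marrow cells of C57BL/6 mice. The mice carried a GFP reporter driven by the nestin promoter, which marks a rare stromal population around marrow vessels. The 3 arrays form 1 group with no control group. The labels used here give neither the time of day of collection nor the age and number of mice, so the spread between arrays may be technical.

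The mammalian clock is a feedback loop that runs in most cells of the body. BMAL1 and CLOCK pair on E-box sequences and activate Per, Cry, Nr1d and Dbp genes. PER and CRY proteins return to the nucleus and inhibit the pair, REV-ERB proteins (from Nr1d1 and Nr1d2) repress Bmal1, and DBP activates genes through D-box sequences. In marrow stroma the clock is known for the daily rhythm of the chemokine Cxcl12, which follows sympathetic signals and times the release of blood stem cells.

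The sequences that these proteins read were looked for in RefSeq promoter windows of build GRCm38.p6, from 250 bases before to 50 bases after a transcript start. The table held 13 windows for 9 of the 10 genes, all but Per2. Both strands were searched for the E-box CACGTG, the E'-box CACGTT, the D-box TTATGTAA or TTACGTAA, the cyclic AMP response element TGACGTCA and the ROR core AGGTCA. None of these motifs contains another. The windows of 3 genes are shown because they held an E-box or a D-box, with every match in capitals. The Per1 window (chr11:69098699-69098998, plus strand) holds an E-box that starts 166 bases before the transcript start, followed by a ROR core. The Cry1 window (chr10:85185005-85185304, minus strand) holds an E'-box and then an E-box, which start 79 and 60 bases before the transcript start. The Per3 window (chr4:151044616-151044915, minus strand) holds 2 D-boxes, which start 205 and 158 bases before it.
Per1: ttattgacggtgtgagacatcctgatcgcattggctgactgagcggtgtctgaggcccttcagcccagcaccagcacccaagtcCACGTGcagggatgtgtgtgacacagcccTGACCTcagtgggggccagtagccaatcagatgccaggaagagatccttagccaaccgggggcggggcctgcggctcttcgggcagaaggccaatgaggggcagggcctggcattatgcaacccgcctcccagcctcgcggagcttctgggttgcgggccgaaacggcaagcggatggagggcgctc
Cry1: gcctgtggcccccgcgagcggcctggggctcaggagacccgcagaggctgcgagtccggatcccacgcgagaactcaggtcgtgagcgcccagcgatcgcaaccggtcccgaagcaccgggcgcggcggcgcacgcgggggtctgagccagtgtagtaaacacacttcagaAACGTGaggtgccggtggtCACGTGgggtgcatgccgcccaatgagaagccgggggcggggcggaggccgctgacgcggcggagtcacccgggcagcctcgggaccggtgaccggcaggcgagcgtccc
Per3: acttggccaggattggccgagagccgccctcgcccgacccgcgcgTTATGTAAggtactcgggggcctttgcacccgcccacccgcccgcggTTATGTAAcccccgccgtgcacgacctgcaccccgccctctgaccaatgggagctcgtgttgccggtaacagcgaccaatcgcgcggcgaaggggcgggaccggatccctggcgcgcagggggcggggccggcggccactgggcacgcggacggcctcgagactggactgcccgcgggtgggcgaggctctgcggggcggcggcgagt

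An E-box was found in 2 of 13 windows (15.4%), those of Per1 and Cry1, and in 7.15% of all 32851 promoter windows of the same length. An E'-box was found in 3 of 13 windows (23.1%), those of Cry1, Cry2 and Nr1d1, and in 4.68% of all windows. A D-box was found in 1 of 13 windows (7.69%), that of Per3, and in 1.06% of all windows. The ROR core was found in 4 of 13 windows (30.8%), 1 each of Bmal1, Clock, Per1 and Nr1d2, and in 16.3% of all windows. The cyclic AMP response element was found in 0 of 13 windows, and in 1.79% of all windows. A match is a description of these letters and not a measured binding site.

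The sorted cells carried the marker signals of the labelled stroma. Of 12 perivascular stromal markers 11 passed the test described below, among them Cxcl12, Lepr and Kitl, while Nes, whose promoter drives the reporter, did not (5.97, 5.21 and 5.56 on arrays 1, 2 and 3, log2). Of 8 leukocyte markers 2 passed, and Ptprc, the gene of CD45, had 4.54, 4.37 and 5.14. Other lists gave 5 of 6 neutrophil, 3 of 8 monocyte and macrophage, 1 of 6 B cell, 2 of 6 erythroid and 6 of 6 osteoblast markers. Of 11 measured endothelial markers 8 passed too. The test was passed by 50.6% of all tested genes and by 3 of 27 genes of other tissues, namely Prm1, Prm2 and Krt10. A pass alone thus does not show that a cell type was present. Array 2 stands apart from arrays 1 and 3 in endothelial content. All 11 measured endothelial markers were lowest on it, and their median was 7.77, 5.88 and 8.15 on arrays 1, 2 and 3. Because bulk RNA was measured, fewer cells of a type and less RNA per cell cannot be told apart. Pearson's r across the 18865 genes was 0.933 to 0.946 between arrays, and genes are not independent replicates.

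All 10 clock genes gave a signal above background on every array. A gene's value was the median of its probesets on the log2 scale. As background served 355 receptor genes of smell and bitter taste (olfactory, vomeronasal and Tas2r genes) with 4 or more probesets, which marrow cells should lack. The threshold of an array was their 95th percentile, at 5.40, 5.66 and 5.64 on arrays 1, 2 and 3. The margin of each gene over the threshold was tested with limma, one-sided, with Benjamini-Hochberg adjustment over all 18865 genes and a call at an adjusted p below 0.05. The count was 10 of 10 clock genes, where 50.6% of all tested genes were called. The median margin was 1.38 for the clock genes, 0.50 for all tested genes and 1.55 for the called genes. Probes differ in affinity, so no ranking between genes is given.

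The RNA of both activator genes gave a signal over the receptor gene threshold. Clock, which encodes the DNA-binding partner of BMAL1, had 8.30, 8.64 and 8.51 on arrays 1, 2 and 3. Its mean was 8.49 ± 0.17 (SD, n = 3), a margin of 2.92 with a standard error of 0.18 (limma, adjusted p = 1.74e-06). Clock stood far over the threshold on all arrays, with margins of 2.87 to 2.99. Bmal1, the partner without which the loop stops in mice, had 6.77, 7.16 and 6.48. Its mean was 6.80 ± 0.34 (SD, n = 3) and its margin 1.24 (limma, adjusted p = 0.00049). Bmal1 was highest on array 2 and lowest on array 3, where its margin was 0.84.

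The Period genes, whose proteins accumulate over the day and enter the nucleus with the CRY proteins, were all above the threshold. Per1, which also responds quickly to stimulation through cyclic AMP signals, had 6.65, 6.79 and 7.24 on arrays 1, 2 and 3 (margin 1.33, limma, adjusted p = 0.000216). Per2 had 6.20, 7.07 and 6.30, with array 2 standing above the other two. Its margin was 0.96 (limma, adjusted p = 0.00247). Per3, which is not needed for the rhythm in mice, had 6.62, 6.45 and 6.93 (limma, adjusted p = 0.000695). Its margins were 1.22, 0.80 and 1.29 on arrays 1, 2 and 3. By the gene median array 3 was highest for Per3 and array 2 lowest. With the mean over probesets array 1 was lowest, and with called probesets only array 2 was highest and array 3 lowest.

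The cryptochromes are the main repressors of the activator pair. Cry1 had 7.12, 6.91 and 6.96 on arrays 1, 2 and 3, with an SD of 0.11 (n = 3). Cry2 had 7.09, 6.74 and 6.56, with a mean of 6.80 ± 0.27 (SD, n = 3). By the gene median both were highest on array 1, while over called probesets Cry2 was lowest on it. Their margins were 1.43 for Cry1 and 1.23 for Cry2 (limma, adjusted p = 0.000143 and 0.000639).

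The REV-ERB genes lay far over the threshold on all arrays. Nr1d1, which encodes REV-ERB alpha, a heme-binding receptor that represses Bmal1, had 8.91, 9.35 and 8.99 on arrays 1, 2 and 3. Its mean was 9.08 ± 0.24 (SD, n = 3) and its margin 3.52 with a standard error of 0.18 (limma, adjusted p = 8.81e-07). Nr1d2, which encodes REV-ERB beta, had 8.41, 8.89 and 8.63, with a mean of 8.64 ± 0.24 (SD, n = 3) and a margin of 3.08 (limma, adjusted p = 1.51e-06). By the gene median array 2 was highest and array 1 lowest for both genes, and with the mean over probesets array 3 was highest for both. Dbp, the output activator, had 7.24, 7.33 and 6.72, and a margin of 1.53 (limma, adjusted p = 0.000172). By the gene median array 3 was lowest for Dbp, while array 1 was lowest with the mean over probesets and with called probesets only.

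**Figure D1:**
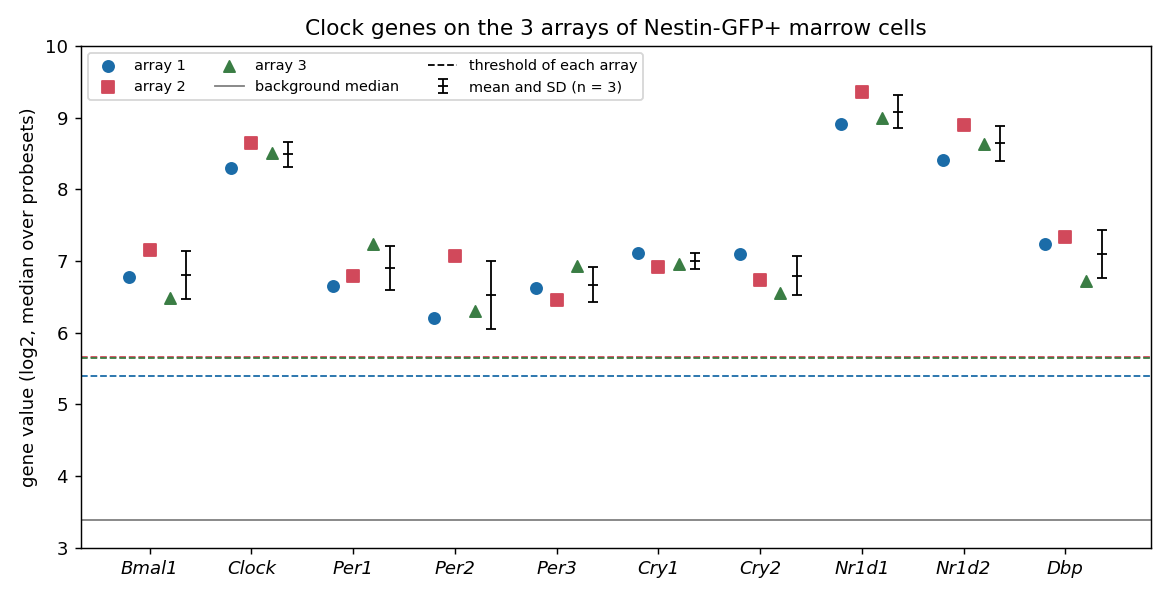
Value of each clock gene (log2, median over its probesets) on arrays 1, 2 and 3, with the mean and SD at the right of each gene. Dashed lines are the thresholds of the 3 arrays (5.40, 5.66 and 5.64), and the grey line is the background median of 3.39. Every point lies above every threshold, with Clock, Nr1d1 and Nr1d2 over 8 and the other 7 genes between 6.20 and 7.33.

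The count depended on where the background was set. Against the 95th percentile of 27 genes of other tissues, 5 of 10 clock genes passed, namely Clock, Cry1, Nr1d1, Nr1d2 and Dbp, where 25.8% of all genes did. At the 99th percentile of the receptor genes 3 of 10 passed, namely Clock, Nr1d1 and Nr1d2, where 20.1% of all genes did. Without any 1 of the arrays the count stayed at 10. Leaving out array 2 keeps the arrays with the higher endothelial signal, so an endothelial part in these values was not tested.

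The signal was spread unevenly over the probesets of a gene, and most of them did not pass by themselves. Each probeset was tested in the same way against the 95th percentile of 3983 receptor probesets, with adjustment over 318760 probesets. Of the 281 clock gene probesets 85 (30.2%) were called, where 20.5% of all single-symbol probesets were. At the 99th percentile of the receptor probesets 11 (3.91%) were called, where 4.91% of all were. The pooled share was thus above that of all probesets at the lower threshold only, and not for each gene. At the lower threshold it was above 20.5% for Nr1d1 (83.3%), Clock (61.1%), Nr1d2 (55.6%), Dbp (33.3%) and Cry2 (30.0%). It was below 20.5% for Per1 (18.9%), Per2 (17.6%), Bmal1 (17.4%), Cry1 (12.5%) and Per3 (11.6%). Probesets of 1 gene share its RNA and are not replicates of the cells. The annotation used here does not say which exon a probeset covers, so the IDs are the platform's.

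Most probesets of Nr1d1, Clock and Nr1d2 were called. The count was 10 of 12 for Nr1d1, 22 of 36 for Clock and 10 of 18 for Nr1d2. The highest probeset of Clock (ID 4528685) had 12.64, 12.83 and 12.79 on arrays 1, 2 and 3, while its lowest (ID 4603142) averaged 2.50. The highest of Nr1d2 (ID 4662057) had 11.37, 11.26 and 11.45, and its lowest (ID 5117608) averaged 4.83. These top probesets varied by under 0.2 between arrays, less than the gene medians did. For Nr1d1 the highest (ID 4383530) had 10.29, 10.42 and 9.99, and the lowest (ID 4581989) averaged 5.10.

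For the other 7 genes a minority of the probesets was called at the probeset threshold, where 20.5% of all single-symbol probesets were. Bmal1, Per1, Per2, Per3 and Cry1 lay below that share, and Cry2 and Dbp above it. Counts were 4 of 23 for Bmal1, 7 of 37 for Per1, 6 of 34 for Per2, 5 of 43 for Per3, 2 of 16 for Cry1, 15 of 50 for Cry2 and 4 of 12 for Dbp. These counts moved when 1 array was left out. Without arrays 1, 2 and 3 in turn Per2 had 2, 0 and 1 called probesets, Bmal1 had 4, 1 and 6, Cry1 had 1, 1 and 0, Per3 had 4, 3 and 3, and Per1 had 5, 4 and 5. The highest probeset of Per3 (ID 4974767) had 11.46, 11.54 and 11.26 on arrays 1, 2 and 3 while the median over its probesets was 6.76. The highest probeset of Dbp (ID 4782196) had 9.82, 10.34 and 10.06, that of Cry2 (ID 5233533) 10.53, 10.09 and 9.27, and that of Per1 (ID 5414067) 10.02, 10.19 and 9.17. The highest of Bmal1 (ID 4729198) had 9.78, 9.27 and 9.44. The highest probeset of Cry1 (ID 5593780) had 9.05, 8.31 and 8.15, and that of Per2 (ID 5374387) had 7.85, 9.26 and 8.37. The lowest probesets averaged 2.22 for Bmal1 (ID 5118247), 3.28 for Per1 (ID 5208911), 1.24 for Per2 (ID 5520408) and 1.83 for Per3 (ID 4555885). They averaged 3.74 for Cry1 (ID 4651735), 2.93 for Cry2 (ID 5464728) and 5.33 for Dbp (ID 4750402). The SD over a gene's probesets had a median of 1.58 for the clock genes, 1.62 for all genes and 1.67 for the called genes.

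**Figure D2:**
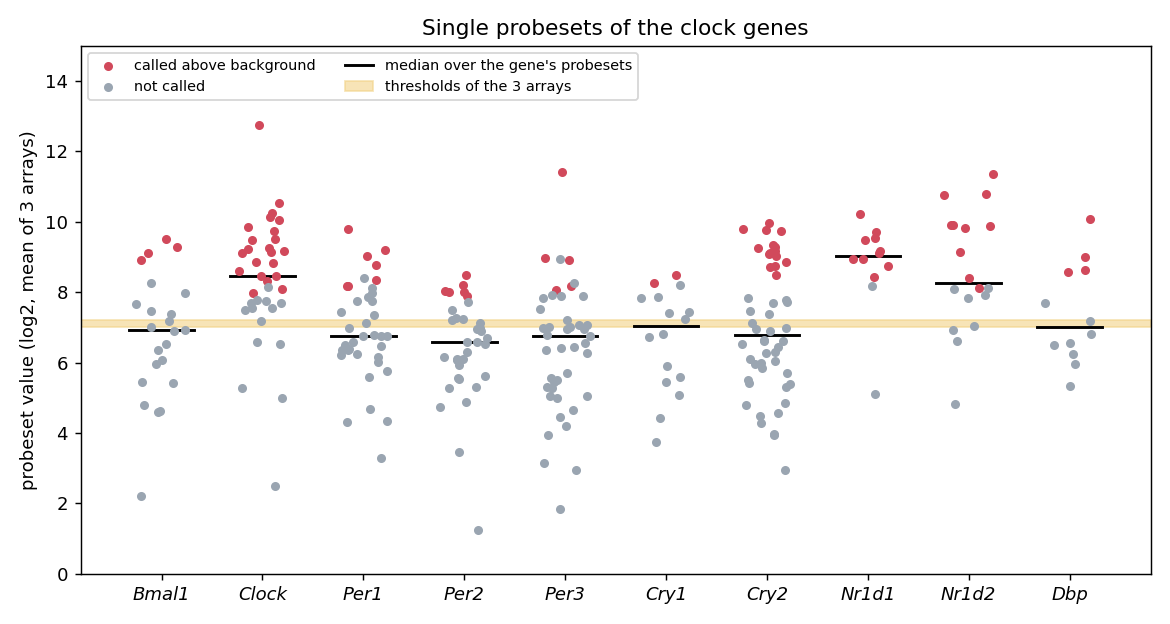
Each point is 1 probeset of a clock gene, at its mean over 3 arrays (log2), coloured by its call, with the gene's median as a black line. The band spans the probeset thresholds of the 3 arrays, of which that of array 2 is the highest, at 7.22. Most probesets of Clock, Nr1d1 and Nr1d2 lie above the band, while the medians of the other 7 genes lie in or below it.

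Probesets that carried 2 symbols were left out of the gene values. Per2 had 3 that also named 9830107B12Rik, and all 3 were highest on array 2, with 8.34, 7.95 and 7.83 there, against 6.14 to 6.68 on array 1 and 6.33 to 6.93 on array 3. Array 2 was thus the highest array for Per2 in these probesets too, although they cannot be assigned to 1 of the 2 genes. Nr1d1 had 2 that also named Thra, the thyroid hormone receptor gene that overlaps it on the opposite strand. They had 7.94, 8.20 and 8.20, and 9.53, 9.43 and 9.33, on arrays 1, 2 and 3.

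Between arrays the clock genes varied about as much as other genes. For this comparison each gene's mean over the arrays and the median shift of each array (0.03, 0.01 and -0.04) were removed. With 1 sample per array the values are a description without a test. The range over the 3 arrays had a median of 0.51 for the 10 clock genes, and also 0.51 for all 18865 genes (log2). Over the 10 gene medians these ranges went from 0.19 for Cry1, or 1.14-fold, to 0.89 for Per2, or 1.85-fold. With the mean over probesets Cry1 had 0.58, the widest of the 10, and Per2 0.44. With called probesets only, Cry1 had 0.73 and Per2 0.76, and the 10 ranges went from 0.20 for Cry2 to 1.05 for Bmal1, so the order of the genes by range depends on the summary. Among genes of like mean level, in 20 bins, the ranges of the gene medians stood at the 76.2th percentile for Per2 and the 8.37th for Cry1.

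The clock genes did not move as a block. On array 2 the gene medians deviated by 0.54 for Per2, 0.35 for Bmal1 and 0.26 for Nr1d1. The deviation was 0.24 for Nr1d2, 0.23 for Dbp and 0.15 for Clock. On the same array Per3 had -0.22, Per1 -0.11, Cry1 -0.09 and Cry2 -0.07. Array 2 was thus the highest array for 6 of 10 genes, where it was for 34.3% of all genes. With the mean over probesets the count was 3, and with called probesets only it was 5, where all genes gave 34.5% and 34.4%. The sign on array 2 changed with that mean for Bmal1 (-0.06) and Per1 (0.15). By the gene median array 1 was the lowest array for 5 of 10 genes, where it was for 34.2% of all genes. With the mean over probesets that count was 7, and with called probesets only 6, where all genes gave 34.1% and 33.9%. Per2 and Dbp were highest on array 2 in each of the 4 ways of computing the value, the values as deposited included. The 4 ways use the same arrays and are not independent, and 1 of them keeps only probesets called on these arrays. Clock, Per1, Per2 and Nr1d2 were lowest on array 1 in all 4, where 10.1% of the 13161 genes with a value in all 4 were. The corresponding share for highest on array 2 in all 4 was 11.6%.

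The single probesets of Per2 and Bmal1 were compared between arrays. For Per2 all 6 called probesets were highest on array 2, by a median of 0.76 over array 1 and 0.61 over array 3. Without array 2 the number of called Per2 probesets was 0, so this order cannot be told apart from how they were chosen. Over all 34 Per2 probesets 23 were higher on array 2 than on array 1, and 23 were higher on it than on array 3. For Bmal1 all 4 called probesets were highest on array 1, with 9.61, 9.94, 10.11 and 9.78 there, against 8.56, 9.33, 8.86 and 9.27 on array 2 and 8.60, 8.05, 8.89 and 9.44 on array 3. The Bmal1 median over all probesets was highest on array 2 instead, so the gene's order over arrays 1 and 2 depends on which probesets are used. Array 3 was the lowest array for Bmal1 in each of the 4 ways. Both called Cry1 probesets were also highest on array 1, with 8.66 and 9.05 there, against 8.19 and 8.31 on array 2 and 7.97 and 8.15 on array 3. The called probesets were chosen by their level on the same arrays.

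Signals of other cells and of stimulation moved between the arrays too. The median of endothelial markers deviated by 0.33, -1.31 and 0.96 on arrays 1, 2 and 3, and that of neutrophil markers by -0.38, -0.09 and 0.45. Immediate-early genes, which rise within minutes of stimulation or cell isolation, were called in 11 of 11 cases, where 50.6% of all genes were. Their median deviation was 0.33, -0.06 and -0.26. They did not move together: 7 of the 11 were highest on array 1, 2 on array 2 and 2 on array 3. Among all genes, array 1 was the highest array for 33.5%. Fos and Atf3 were the 2 with their highest value on array 3. Fos deviated by 0.09, -0.75 and 0.67 and Atf3 by -0.51, -0.26 and 0.77. They are exceptions in the list, since array 3 was the lowest array for 6 of the 11 immediate-early genes. Per1, which also responds quickly to stimulation, deviated by -0.27, -0.11 and 0.38 by the gene median. With the mean over probesets it deviated by -0.16, 0.15 and 0.02, and with called probesets only by -0.17, 0.19 and -0.02. Its highest array thus depends on the summary. The part of these signals in the clock gene values was not tested.

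**Figure D3:**
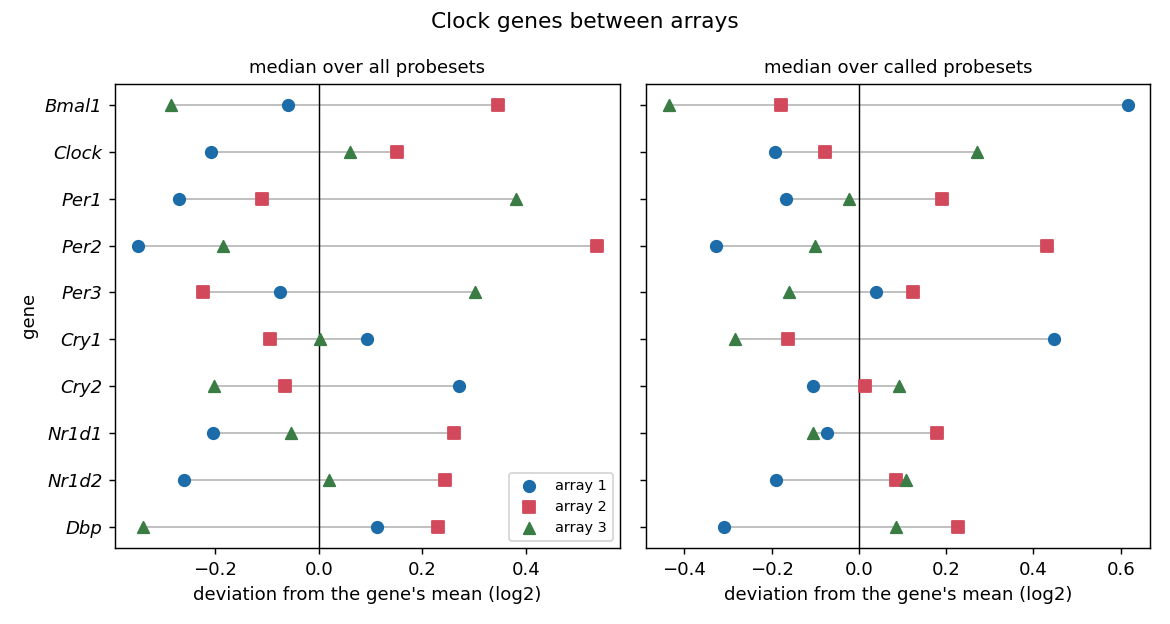
Deviation of each clock gene from its own mean on arrays 1, 2 and 3 (log2, array median removed), with the median over all probesets at left and over called probesets at right. Per2 is highest on array 2 in both panels, although its called probesets were chosen on the same arrays. Bmal1 is highest on array 2 at left (0.35) and on array 1 at right (0.62).

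Beyond the 10 genes, 47 genes that act with the clock were listed in sublists, and 41 had at least 4 probesets. Of these 32 were called by limma, where 50.6% of all genes were, and their median margin was 1.87. The rest of the list was not analysed here.

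Of the 8 genes in the sublist of partners and repressors, which also held Timeless and Tipin, 2 were called. Of all genes 50.6% were called. Npas2, which can replace CLOCK in some tissues, was called with 7.64, 7.46 and 7.26 on arrays 1, 2 and 3. Tipin, which encodes a partner of TIMELESS in DNA replication, was called with 7.77, 8.40 and 7.46. The other 6 did not pass. Bmal2, the paralog of Bmal1, had 4.52, 5.37 and 4.85, below the threshold on all arrays (margin -0.65). The repressor gene Ciart had 5.15, 4.97 and 4.49 (margin -0.69). Margins were 0.25 for Bhlhe40 and -0.10 for Bhlhe41, which encode E-box repressors, 0.35 for the CLOCK inhibitor gene Cipc and 0.41 for Timeless (limma, adjusted p = 0.208, 0.934, 0.121 and 0.0574). With the mean over probesets Bhlhe40 and Timeless passed (limma, adjusted p = 0.00657 and 0.00452). Bhlhe41 varied widely, with 6.42, 5.24 and 4.75 on arrays 1, 2 and 3. A missing call does not show that a transcript was absent.

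The factors that share the D-box with DBP were all called, 3 of 3. Nfil3, which represses through the D-box, had a margin of 1.58, and Tef, an activator, one of 0.78, with 6.45, 6.31 and 6.29 on arrays 1, 2 and 3. Hlf had a margin of 0.91. Of the receptors that oppose REV-ERB at the ROR site, Rora was called with 8.17, 8.26 and 8.11, a margin of 2.61 (limma, adjusted p = 3.49e-06), and Rorb, known from brain and retina, was not, with 4.97, 5.30 and 4.93.

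Genes whose products modify the clock proteins were mostly called, where 50.6% of all genes were. All 7 kinase and phosphatase genes passed, among them the casein kinase gene Csnk1e with a margin of 1.55 and the phosphatase gene Ppp1cb with 4.18. Of 5 ubiquitin pathway genes 4 passed, among them Huwe1 with a margin of 3.02. Fbxl21, which encodes an F-box protein that acts on CRY, did not, with 6.60, 4.71 and 5.42 on arrays 1, 2 and 3, above the threshold on array 1 only. All 6 corepressor genes passed, among them Wdr5 with a margin of 1.04 and Sfpq with 5.12. The call of the protease gene Usp2 was lost without array 2 and without array 3 (limma, adjusted p = 0.139 and 0.0781). These enzymes and corepressors act in many pathways and are not specific to the clock.

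Among output genes 5 of 6 passed, where 50.6% of all genes did. Cxcl12 had a margin of 6.19, with 11.77, 11.89 and 11.61 on arrays 1, 2 and 3, a range of 0.23. The cell cycle kinase gene Wee1 did not pass, with 6.35, 5.86 and 5.38 (limma, adjusted p = 0.238). Noct, which encodes a phosphatase of cofactors named for its night peak, had 8.39, 10.15 and 9.68, a range of 1.78. The annotation gave its former symbol Ccrn4l to 94 probesets, more than any clock gene had, so its value may include other transcripts. Of genes that carry adrenergic and cyclic AMP signals 4 of 4 measured passed, with Creb1 at a margin of 3.03 and Crtc1 at 1.63.

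**Figure D4:**
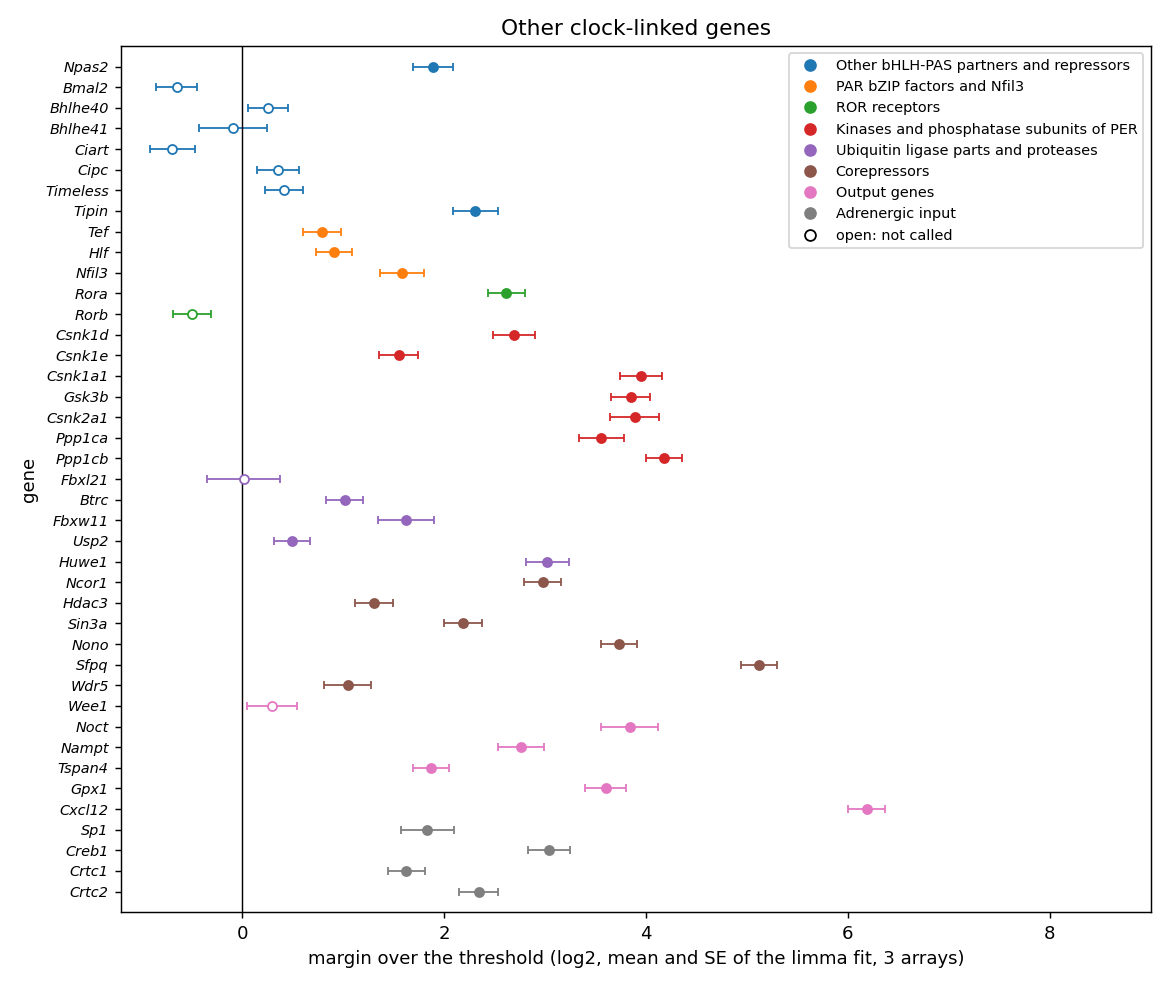
Mean margin over the threshold (log2, with the standard error of the limma fit, 3 arrays) of 41 other clock-linked genes, coloured by sublist, with open symbols for genes not called. Of 41 genes 32 are filled, and 6 of the 9 open ones belong to the sublist of partners and repressors, which includes Timeless.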

How the data were processed

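Expression was measured in 3 samples of Nestin-GFP+ marrow cells, 1 array each. The authors deposited log2 values, 1 for each probeset and array, computed with RMA in Affymetrix Expression Console 1.1 according to the submitters' processing notes. Settings and annotation build are not stated in the labels. RMA brings the arrays to a common distribution, so a shift shared by all genes would not be seen. Each array held 1256831 probesets with medians of 5.20, 5.22 and 5.24. No read depth applies, and the number of arrays limits the precision.

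Probesets were named from the platform's annotation, which gave 1 symbol to 318760 probesets, several to 6684 and none here to 931387. Former symbols were replaced where a RefSeq gene table (GRCm38.p6) listed them as synonyms. Gene values were medians over probesets, for genes with at least 4. Intercept-only models were fitted with limma 3.58.1 in R 4.3.3 and checked on simulated data. Promoter sequences are RefSeq's and were read on the gene's strand.

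All 10 members and, of each sublist of clock-linked genes, the largest and smallest margin and each gene not called were named, together with the highest and lowest probeset of each member. Npas2, Hlf, Noct, Usp2, Btrc, Fos and Atf3 were named after their values were seen. Genes with a like pattern over samples were not sought, since 3 arrays of 1 group give no profile to match. The members and lists were chosen with earlier results of these data known. Other summaries, thresholds, probeset minimums, scalings and the removal of each array were tried.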

Additional observations from a re-analysis of the deposited data

How the results depend on the processing

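The 10 clock genes were all called with the mean or the upper quartile over probesets, with centred arrays and without any 1 array (10 to 10), and 9 were called with at least 1 probeset per gene, where Per2 was lost (limma, adjusted p = 0.0833). Without array 2 limma pooled the variance fully over genes. The threshold moved the counts most. At the 99th percentile 3 clock genes, 21 other clock-linked genes and 11 of 281 clock gene probesets (3.91%) were called, where 3797 of all genes and 4.91% of all probesets were. Against other tissues 5 clock genes were called and 4872 of all genes. Among the clock and clock-linked genes called at the 95th percentile, margins below 0 at the 99th percentile were -0.27 for Per2, -0.12 for Per3, -0.44 for Tef, -0.32 for Hlf, -0.21 for Btrc, -0.74 for Usp2 and -0.18 for Wdr5. Among the same genes, margins below 0 against other tissues were -0.14 for Tef, -0.018 for Hlf and -0.44 for Usp2. Without 1 array the called probesets of the clock genes numbered 62 to 74 and the called clock-linked genes 31 to 32, and Per2 kept 0 called probesets without array 2, 1 without array 3 and 2 without array 1. Leaving out probesets at 0 on every array changed no value, since 0 probesets with a single symbol were at 0 on every array. The range of Bmal1 over the arrays was 1.05 with called probesets only. No paired analysis was possible because the 3 arrays form 1 group.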
